A study of Homo sapiens with 6 samples.

Results

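The mRNA levels of 9 enzymes of nucleotide synthesis were examined in SW480 cells with and without knockdown of RBM39, an RNA-binding protein and splicing factor. The enzymes were listed by function, with earlier results of these data known. They are thymidylate synthase (TYMS), thymidine kinase (TK1), the large and small subunits of ribonucleotide reductase (RRM1 and RRM2), the pyrimidine enzymes CAD and UMPS, and the purine enzymes IMPDH2, PPAT and GART. These are 9 of the 56303 gene symbols in the count table, and all 9 were among the 18243 symbols with enough counts to be tested. The symbols RRM1 and RRM2 stand for the reductase genes and not for the RNA recognition motifs of RBM39 that share these names.

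SW480 is a line established from a human colon adenocarcinoma. By the study's methods, cells were infected with lentivirus carrying either a nonsilencing hairpin (shCtrl, genotype label WT) or a hairpin against RBM39 (shRBM39, labelled as a knockdown), and stable clonal lines were selected with puromycin, so both groups carry a hairpin vector and the selection. Each group had 3 libraries, and the labels do not say that they came from separate infections or clones, so the p-values below measure the spread between these libraries. An effect of the knockdown, of the single hairpin construct and of the clone cannot be told apart in this design.

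Cells make nucleotides either from small precursors (de novo synthesis) or by recycling bases and nucleosides (salvage). De novo purine synthesis builds the ring on phosphoribosyl pyrophosphate (PRPP) until IMP, from which AMP and GMP are made, whereas the pyrimidine ring is closed first and then joined to PRPP to give UMP. Ribonucleotide reductase turns ribonucleotides into deoxyribonucleotides, and thymidylate synthase adds the methyl group that distinguishes thymine from uracil. Genes of the deoxynucleotide supply are known to be transcribed mainly around S phase through E2F factors, and several genes of de novo synthesis are known targets of MYC.

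The libraries held 18042924 to 20428901 counts and were scaled with TMM, which sets each library against the bulk of its genes. Coordinates of the 9 genes below run from the outermost exon ends of the count table, on GRCh38. Values below are CPM on that scale, a gene's count set against the size of its library, unless RPKM, which also divides by gene length, is named. TMM factors were 1.03 to 1.05 in shCtrl and 0.955 to 0.960 in shRBM39. The median log2 fold change of all tested genes was -0.01 with TMM and -0.14 with library totals alone, so a change near this size depends on the scaling. Replicates differed by more than sampling noise (chi-square per degree of freedom 2.11 to 4.21) and were counted separately. RBM39 itself read 441, 448 and 435 CPM in shCtrl and 266, 276 and 292 CPM in shRBM39, a fall by 0.67 on the log2 scale (SE 0.037, edgeR adjusted p = 2.41e-23). All 7 epithelial markers were detected, with a summed level of 11703 to 12530 CPM in shCtrl and 14754 to 15327 CPM in shRBM39. The keratins KRT8 and KRT18 rose by 0.43 and 0.24 on the log2 scale, CDH1 fell by 0.39, VIL1 by 0.09 and CDX2, a marker of intestinal epithelium, from 21.7 to 4.95 CPM, and EPCAM and KRT19 did not pass the test. The 5 leukocyte markers summed to 0.155 to 0.842 CPM with PTPRC at 0, the 5 fibroblast markers to 6.99 to 7.20 CPM in shCtrl and 9.59 to 12.5 CPM in shRBM39, and the 4 endothelial markers to 3.47 to 4.57 and 6.45 to 7.95 CPM with KDR at 0. The part of these marker differences in the results was not tested.

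Of the 9 enzymes, 6 rose in shRBM39, 1 fell and 2 did not pass the test (edgeR quasi-likelihood test, Benjamini-Hochberg adjusted p under 0.05 over all tested genes). Among all tested genes 59.5% passed, 29.3% higher and 30.2% lower, so a call by itself was common in this comparison. The 6 include CAD, whose change was not above 0 with library totals alone. The size of the rises was less common: 5 of the 9 enzymes, TYMS, TK1, RRM1, RRM2 and UMPS, were called with a log2 fold change of at least 0.5, against 11.3% of all tested genes. TK1, RRM1 and RRM2 also passed the stricter edgeR test against a log2 fold change of 0.5, which 5.63% of all tested genes passed upward. The median log2 fold change was 0.54 over the 9 enzymes. It was 0.99 over the 4 enzymes of the deoxynucleotide supply and 0.01 over the 3 purine enzymes. In bulk RNA, a larger share of cells in a phase that uses these enzymes and more of their mRNA per cell cannot be told apart. The CPM values of the groups did not overlap for 7 of the 9 enzymes, against 63.3% of all tested genes.

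**Figure D1:**
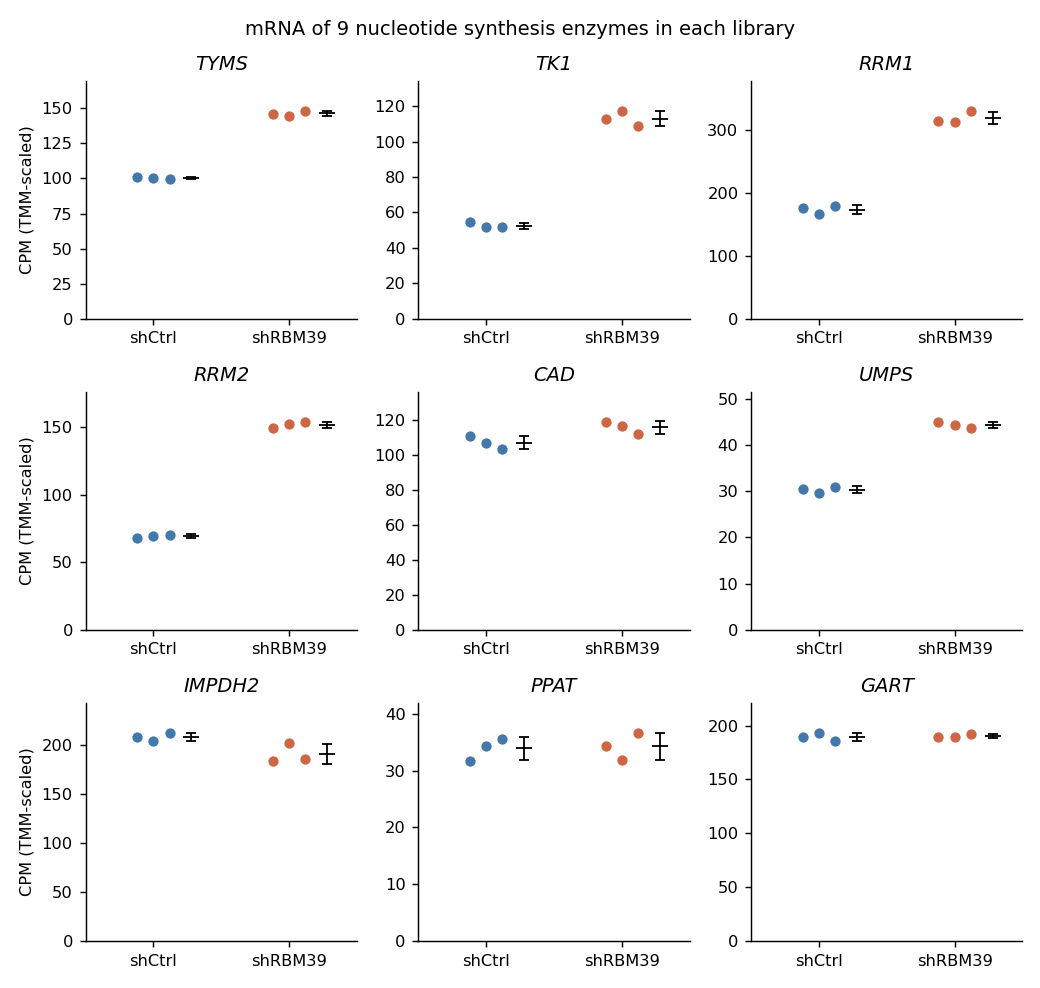
CPM (TMM-scaled) of each of the 9 enzymes in the 3 shCtrl libraries (blue) and the 3 shRBM39 libraries (orange), with the mean and SD in black beside the points and axes starting at 0. TK1, RRM1 and RRM2 show the widest gaps between the groups, while the points of PPAT and GART overlap.

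Promoter sequences are shown for members that differed in their behaviour, TYMS, TK1, RRM1 and RRM2 from the deoxynucleotide supply and PPAT and GART from purine synthesis. The sequences are from RefSeq on GRCh38.p14, the 250 bases before the start site, written 5′ to 3′ on the strand of the gene. The windows lie at chr18:657403.0-657652.0 on the plus strand, chr17:78187053.0-78187302.0 on the minus strand, chr11:4094435.0-4094684.0 on the plus strand, chr2:10122489.0-10122738.0 on the plus strand, chr4:56435616.0-56435865.0 on the minus strand and chr21:33542118.0-33542367.0 on the minus strand. Capitals mark letters of 3 searched motifs, read on both strands: E2F-type letters (TTCCCGC or TTCGCGC or TTGCCGC or TTGGCGC), the E-box (CACGTG) and the CCAAT box (CCAAT).

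TYMS: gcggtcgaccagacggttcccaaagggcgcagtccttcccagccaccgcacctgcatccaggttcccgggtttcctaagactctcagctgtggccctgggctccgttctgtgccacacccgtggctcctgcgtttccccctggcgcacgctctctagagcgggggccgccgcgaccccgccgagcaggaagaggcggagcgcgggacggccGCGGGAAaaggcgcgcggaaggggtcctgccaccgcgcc
TK1: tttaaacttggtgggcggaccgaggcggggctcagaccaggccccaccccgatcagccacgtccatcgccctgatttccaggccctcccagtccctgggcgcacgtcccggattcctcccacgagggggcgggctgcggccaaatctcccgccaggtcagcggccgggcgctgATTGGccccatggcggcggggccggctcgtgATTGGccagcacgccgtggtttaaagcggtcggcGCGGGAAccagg
RRM1: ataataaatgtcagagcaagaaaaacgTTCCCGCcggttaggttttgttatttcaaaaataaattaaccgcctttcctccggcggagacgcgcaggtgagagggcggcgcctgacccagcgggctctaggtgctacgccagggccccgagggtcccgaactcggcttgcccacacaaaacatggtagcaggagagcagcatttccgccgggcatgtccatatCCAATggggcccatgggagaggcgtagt
RRM2: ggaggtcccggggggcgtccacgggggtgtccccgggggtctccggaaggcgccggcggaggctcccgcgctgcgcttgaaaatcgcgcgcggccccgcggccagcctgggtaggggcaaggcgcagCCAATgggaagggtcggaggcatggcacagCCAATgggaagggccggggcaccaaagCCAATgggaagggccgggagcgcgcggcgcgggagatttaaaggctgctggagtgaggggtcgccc
PPAT: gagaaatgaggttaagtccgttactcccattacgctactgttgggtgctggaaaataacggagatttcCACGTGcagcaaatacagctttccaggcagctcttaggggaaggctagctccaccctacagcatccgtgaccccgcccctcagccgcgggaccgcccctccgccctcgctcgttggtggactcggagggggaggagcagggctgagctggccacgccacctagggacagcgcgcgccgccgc
GART: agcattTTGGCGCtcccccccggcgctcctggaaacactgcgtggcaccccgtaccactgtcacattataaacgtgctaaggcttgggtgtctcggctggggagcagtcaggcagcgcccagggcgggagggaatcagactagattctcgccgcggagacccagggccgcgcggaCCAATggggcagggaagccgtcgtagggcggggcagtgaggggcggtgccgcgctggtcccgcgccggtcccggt

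E2F-type letters stood in the windows of TYMS, TK1, RRM1 and GART, 4 of the 8 members with a RefSeq window, against 10.9% of all 35116 windows and 15.7% of the windows of tested genes. The count of members takes 1 window per gene, whereas the shares count every window of a gene, so the units differ. In TK1 they began 12 bases before the start site, in TYMS 39, in RRM1 223 and in GART 244. The RefSeq start site used for RRM1 lies 114 bp from the start of its canonical transcript in GENCODE. Those of the other windows shown lie at the canonical start, so positions in RRM1 are not directly comparable. The window of RRM2 shown here held none, while its other RefSeq window held such letters. TK1 has 2 RefSeq windows and GART 3, and in each gene only the 1 shown held them. CCAAT letters stood in 5 of the 8 windows, against 32.0% of all windows and 32.8% of those of tested genes. RRM2 had 3 copies, beginning 123, 93 and 66 bases before the start. The E-box was found in PPAT alone among the 8, beginning 182 bases before the start, against 6.34% of all windows and 8.19% of those of tested genes. CAD had CCAAT letters only, and UMPS had none of the 3 motifs. A match of letters is a description of these windows and no evidence of binding. IMPDH2 had no entry in the sequence table.

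RRM2 (chromosome 2, 10122328 to 10131419, plus strand), the small subunit of ribonucleotide reductase that carries the tyrosyl radical and is made anew for each S phase, had the highest fold change of the 9, within 1 SE of that of TK1. It read 67.7, 69.8 and 70.6 CPM in shCtrl and 149, 152 and 154 CPM in shRBM39. Every shRBM39 library was above every shCtrl library, and the spread within a group was small beside the gap. The mean went from 69.4 ± 1.47 to 152 ± 2.37 CPM (SD, n = 3). On the log2 scale this is a rise of 1.13 (SE 0.040, edgeR adjusted p = 2.36e-32), at rank 292 from the highest of the 18243 tested genes. Rows of RRM2 pseudogenes held at most 3 counts in any library.

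RRM1 (chromosome 11, 4094707 to 4138876, plus strand), the large subunit that holds the catalytic and allosteric sites, had a lower fold change. It read 177, 166 and 179 CPM in shCtrl and 315, 313 and 331 CPM in shRBM39. The groups did not overlap, with the lowest shRBM39 library well above the highest shCtrl library. RRM1 thus had a log2 fold change of 0.88 (SE 0.038, edgeR adjusted p = 1.40e-28), or 1.84-fold on the linear scale. Its exons overlap those of RRM1-AS1 on the opposite strand by 63 bp, and a sharing of reads was not tested.

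Because RRM1 and RRM2 form 1 enzyme, their ratio was taken within each library, where it does not depend on the scaling between libraries. The ratio of RRM2 to RRM1 in counts per kilobase was 0.323, 0.354 and 0.333 in shCtrl and 0.400, 0.410 and 0.392 in shRBM39. The ratio was higher in each shRBM39 library than in any shCtrl library, by 0.25 on the log2 scale. The exact two-sided permutation test gave p = 0.1, the smallest value that 3 libraries against 3 allow, and 0.125 after adjustment over the 5 ratios computed. RRM2B, the p53-induced small subunit that serves outside S phase, rose as well, from 8.93 ± 0.966 to 11.5 ± 1.16 CPM (SD, n = 3, log2 fold change 0.37, edgeR adjusted p = 0.000783). The ratio of RRM2 to RRM2B was 7.99 to 9.82 in shCtrl and 13.8 to 16.4 in shRBM39 without overlap, a difference of 0.76 on the log2 scale (exact p = 0.1, adjusted 0.125).

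TK1 (chromosome 17, 78174075 to 78187233, minus strand), the cytosolic thymidine kinase of the salvage route, came next. It read 54.5, 51.7 and 51.5 CPM in shCtrl and 113, 117 and 109 CPM in shRBM39. The groups lay far apart, and the shRBM39 libraries spread over a wider range than the shCtrl libraries. This was a log2 fold change of 1.10 (SE 0.044, edgeR adjusted p = 4.73e-30), or 2.15-fold. TK2, the mitochondrial thymidine kinase that is not tied to the cell cycle, did not pass the test at a log2 fold change of 0.14 (SE 0.07, edgeR adjusted p = 0.076). TK2 was taken up after its value was seen, as the paralog of TK1.

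TYMS (chromosome 18, 657604 to 673578, plus strand) makes thymidylate from deoxyuridylate and is the target of fluorouracil, a drug used against colorectal cancer. It read 101, 100.3 and 99.9 CPM in shCtrl and 146, 145 and 148 CPM in shRBM39. Each group lay within a few CPM, and the groups did not overlap. TYMS rose by 0.54 on the log2 scale (SE 0.039, edgeR adjusted p = 8.95e-19), which did not pass the test against 0.5 (adjusted p = 0.255). The exons of TYMS overlap those of ENOSF1 by 465 bp and of TYMSOS by 183 bp, both on the opposite strand, and the strand setting of the counting is not given in the sources used here. ENOSF1 rose by 0.33 and TYMSOS by 0.54 on the log2 scale, and whether reads were shared between these genes was not tested.

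TYMP, which breaks thymidine down, had only 5 to 19 counts per library. The ratio of TYMS to TYMP overlapped between the groups (exact p = 0.5, adjusted 0.5).

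UMPS (chromosome 3, 124730366 to 124749273, plus strand) carries out the closing steps of UMP synthesis. It read 30.4, 29.6 and 31.0 CPM in shCtrl and 45.0, 44.3 and 43.6 CPM in shRBM39. The groups did not overlap and no library was more than 1 CPM from the mean of its group. UMPS rose by 0.55 on the log2 scale (SE 0.053, edgeR adjusted p = 8.48e-14), and the test against 0.5 was not passed (adjusted p = 0.342).

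CAD (chromosome 2, 27217390 to 27243943, plus strand), the trifunctional enzyme that opens pyrimidine synthesis and is named for its carbamoyl-phosphate synthetase, aspartate transcarbamylase and dihydroorotase activities, was close to level. It read 111, 107 and 103 CPM in shCtrl and 119, 117 and 112 CPM in shRBM39. The lowest shRBM39 library lay just above the highest shCtrl library. The log2 fold change was 0.11 (SE 0.040, edgeR adjusted p = 0.0121), but it was -0.01 with library totals alone (adjusted p = 0.866), and the call was also lost without shCtrl replicate 3 (0.09, adjusted p = 0.0875) and without shRBM39 replicate 1 (0.10, adjusted p = 0.0572). No direction can therefore be given for CAD.

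IMPDH2 (chromosome 3, 49024325 to 49029408, minus strand), the rate-limiting enzyme of GMP synthesis, was the only one of the 9 that fell. It read 209, 204 and 212 CPM in shCtrl and 184, 202 and 186 CPM in shRBM39. All shRBM39 libraries were below the shCtrl libraries, and shRBM39 replicate 2 lay close to them. The mean was 208 ± 4.06 CPM in shCtrl and 191 ± 10.3 CPM in shRBM39 (SD, n = 3), with a fitted log2 fold change of -0.13 (SE 0.038, edgeR adjusted p = 0.00311). It stayed below 0 in all 17 alternative settings, from -0.25 with library totals alone to -0.10 without shRBM39 replicate 1. Library totals move the median of all tested genes from -0.01 to -0.14, a shift near the size of this fall. Settings scaled that way move genes downward, so they could not have turned the fall of IMPDH2. The exons of IMPDH2 overlap those of RP13-131K19.6 on the opposite strand by 93 bp, and a sharing of reads was not tested.

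The isoenzyme IMPDH1 rose, from 35.2 ± 2.97 to 42.9 ± 2.55 CPM (SD, n = 3, log2 fold change 0.28, edgeR adjusted p = 1.91e-05). The ratio of IMPDH2 to IMPDH1 in counts per kilobase was 7.69, 7.12 and 8.76 in shCtrl and 5.34, 6.25 and 6.07 in shRBM39. IMPDH2 was the more abundant form in all 6 libraries, and the ratio was lower in each shRBM39 library, by a difference of -0.41 on the log2 scale (exact p = 0.1, adjusted 0.125).

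PPAT (chromosome 4, 56393362 to 56435615, minus strand) commits PRPP to purine synthesis. It read 31.7, 34.4 and 35.6 CPM in shCtrl and 34.4, 31.8 and 36.6 CPM in shRBM39. The groups overlapped over nearly their whole range. The log2 fold change was 0.02 (SE 0.057, edgeR adjusted p = 0.797), and no alternative setting called it, with values from -0.11 to 0.07. The exons of PPAT overlap those of RP11-646I6.6 on the opposite strand by 121 bp, and a sharing of reads was not tested.

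PPAT lies head to head with PAICS, the enzyme of later steps of the same route, and the RefSeq start sites of PAICS lie 137, 645 and 25108 bp from that of PPAT. PAICS rose from 135 ± 1.04 to 182 ± 3.99 CPM (SD, n = 3, log2 fold change 0.43, edgeR adjusted p = 2.74e-15). The ratio of PPAT to PAICS was 0.326, 0.354 and 0.361 in shCtrl and 0.268, 0.242 and 0.273 in shRBM39. The values did not overlap and were lower in shRBM39, with a difference of -0.41 on the log2 scale (exact p = 0.1, adjusted 0.125).

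GART (chromosome 21, 33503931 to 33543491, minus strand), a trifunctional enzyme of early purine ring assembly, read 189, 193 and 186 CPM in shCtrl and 189, 189 and 192 CPM in shRBM39. The groups overlapped, and the shRBM39 libraries lay inside the range of the shCtrl libraries. The log2 fold change was 0.01 (SE 0.037, edgeR adjusted p = 0.905). With library totals alone it was -0.12 (adjusted p = 0.00346), and with offsets for GC content and gene length 0.08 (adjusted p = 0.0396), so no direction can be given. GART overlaps SON, a splicing factor gene on the opposite strand, by 275 bp of exon, and SON rose by 0.35 on the log2 scale.

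**Figure D2:**
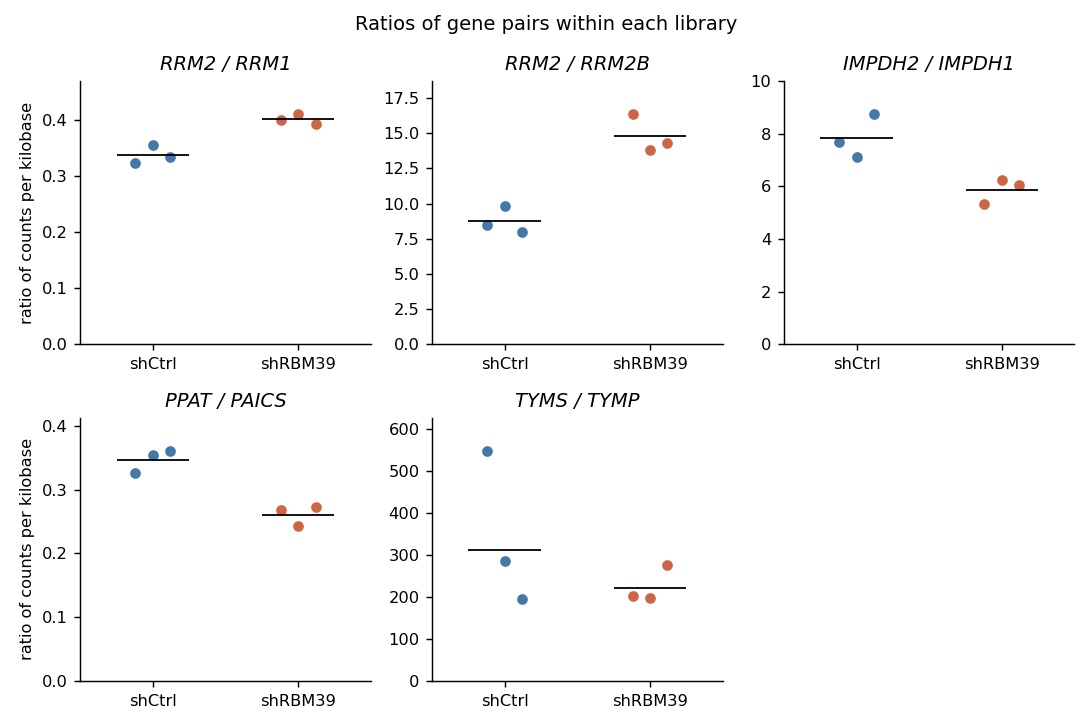
Ratio of counts per kilobase within each library for 5 gene pairs, in shCtrl (blue) and shRBM39 (orange), with the geometric mean of each group as a line and axes starting at 0. RRM2 stands higher against RRM1 and against RRM2B in every shRBM39 library, IMPDH2 against IMPDH1 and PPAT against PAICS stand lower, and the values of TYMS against TYMP overlap.

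Levels of different genes were compared per length, in RPKM on the TMM scale. The length is that of all exons listed for a symbol, not of the transcripts expressed, so the order of genes depends on the annotation. In shCtrl the order from the highest was IMPDH2 (75.1 RPKM), RRM1 (41.6), TYMS (40.7), TK1 (28.3), GART (24.4), RRM2 (14.0), CAD (12.7), PPAT (6.23) and UMPS (4.0). RRM1 and TYMS overlapped, and the other neighbours did not. In shRBM39 the order was RRM1 (76.6 RPKM), IMPDH2 (68.7), TK1 (60.7), TYMS (59.3), RRM2 (30.7), GART (24.5), CAD (13.8), PPAT (6.30) and UMPS (5.85). There TK1 overlapped TYMS, and PPAT overlapped UMPS. RRM1 thus moved above IMPDH2 and RRM2 above GART. Both subunits of the reductase were present at unequal mRNA levels in both groups, with RRM1 above RRM2.

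**Figure D3:**
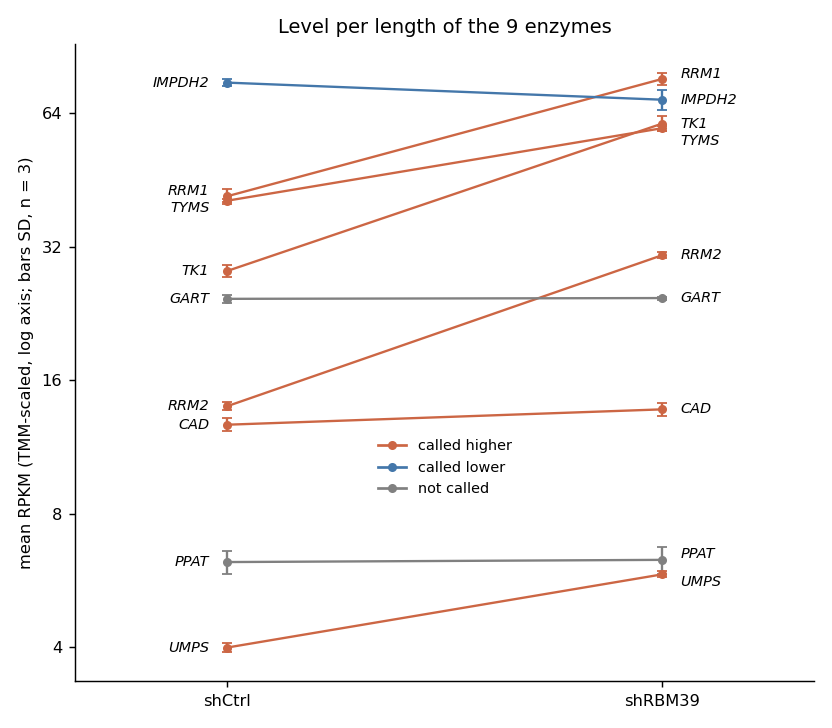
Mean RPKM (TMM-scaled, log axis) of the 9 enzymes in shCtrl and shRBM39, with SD bars from 3 libraries and lines joining the same gene. The lines of RRM1 and IMPDH2 cross at the top and those of RRM2 and GART cross in the middle, while UMPS comes up to PPAT at the bottom; the slight rise drawn for CAD does not hold with library totals alone.

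The other listed genes of nucleotide metabolism were then counted by route. Of 44 genes, 42 were tested, of which 27 rose, 3 fell and 12 did not pass the test, with a median log2 fold change of 0.30. Over all tested genes, 29.3% rose and 30.2% fell. With library totals alone, 22 of the listed genes were called higher and 11 lower. NT5E and XDH, both of nucleotide breakdown, had too few counts to be tested.

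All 7 other genes of the deoxynucleotide supply rose (median log2 fold change 0.77). DUT, which removes dUTP and delivers the substrate of TYMS, had the largest change, from 50.7 ± 0.294 to 104 ± 1.49 CPM (SD, n = 3, log2 fold change 1.04, edgeR adjusted p = 4.09e-29). NUDT1, which clears oxidised purine nucleotides, rose by 0.94, and DCTPP1, which clears modified deoxycytidine triphosphates, by 0.77. SAMHD1, which degrades deoxynucleoside triphosphates and so acts against the synthesis enzymes, rose by 0.81. The rise thus included both makers and removers of deoxynucleotides.

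Of the 6 other pyrimidine genes, 3 rose, 1 fell and 2 did not pass the test (median log2 fold change 0.23), where 59.5% of all tested genes passed. The isoenzymes that make CTP from UTP moved apart: CTPS1 rose from 56.1 ± 1.60 to 89.2 ± 4.23 CPM (log2 fold change 0.67, edgeR adjusted p = 8.76e-20), and CTPS2 fell from 40.2 ± 0.565 to 33.9 ± 1.48 CPM (SD, n = 3, log2 fold change -0.25, edgeR adjusted p = 6.62e-05). NME1 and NME2, which phosphorylate nucleoside diphosphates, rose by 0.74 and 0.32. They are close paralogs, how reads matching both were counted is not given in the sources used here, and a sharing of reads between them was not tested.

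Of the 12 other purine genes, 7 rose, none fell and 5 did not pass the test (median log2 fold change 0.18), a share of calls close to the 59.5% of all tested genes. PRPS1, which makes PRPP for all routes, rose by 0.63, from 78.5 ± 5.06 to 122 ± 0.219 CPM (SD, n = 3, edgeR adjusted p = 8.52e-20). ADSS2, which leads from IMP to AMP, rose by 0.38, and its paralog ADSS1 had a log2 fold change of 0.32 that did not pass the test (adjusted p = 0.0626). Of the 9 enzymes, the purine route also holds IMPDH2, which fell, and PPAT and GART, which did not pass the test.

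Of the 9 other salvage genes, 6 rose and 3 did not pass the test (median log2 fold change 0.24). APRT, which salvages adenine, rose by 0.72, DCK, the deoxycytidine kinase, by 0.55, and the uridine-cytidine kinases UCKL1 and UCK1 by 0.51 and 0.34. Of the 8 tested breakdown genes, 4 rose, 2 fell and 2 did not pass the test. Both lists stand beside 59.5% of all tested genes that passed, 29.3% higher and 30.2% lower. CDA, the cytidine deaminase, fell by 0.91 and UPP1, a uridine phosphorylase, by 0.36, while PNP and ADA of purine breakdown rose by 0.58 and 0.39. TYMP rose by 0.91 on at most 19 counts per library.

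**Figure D4:**
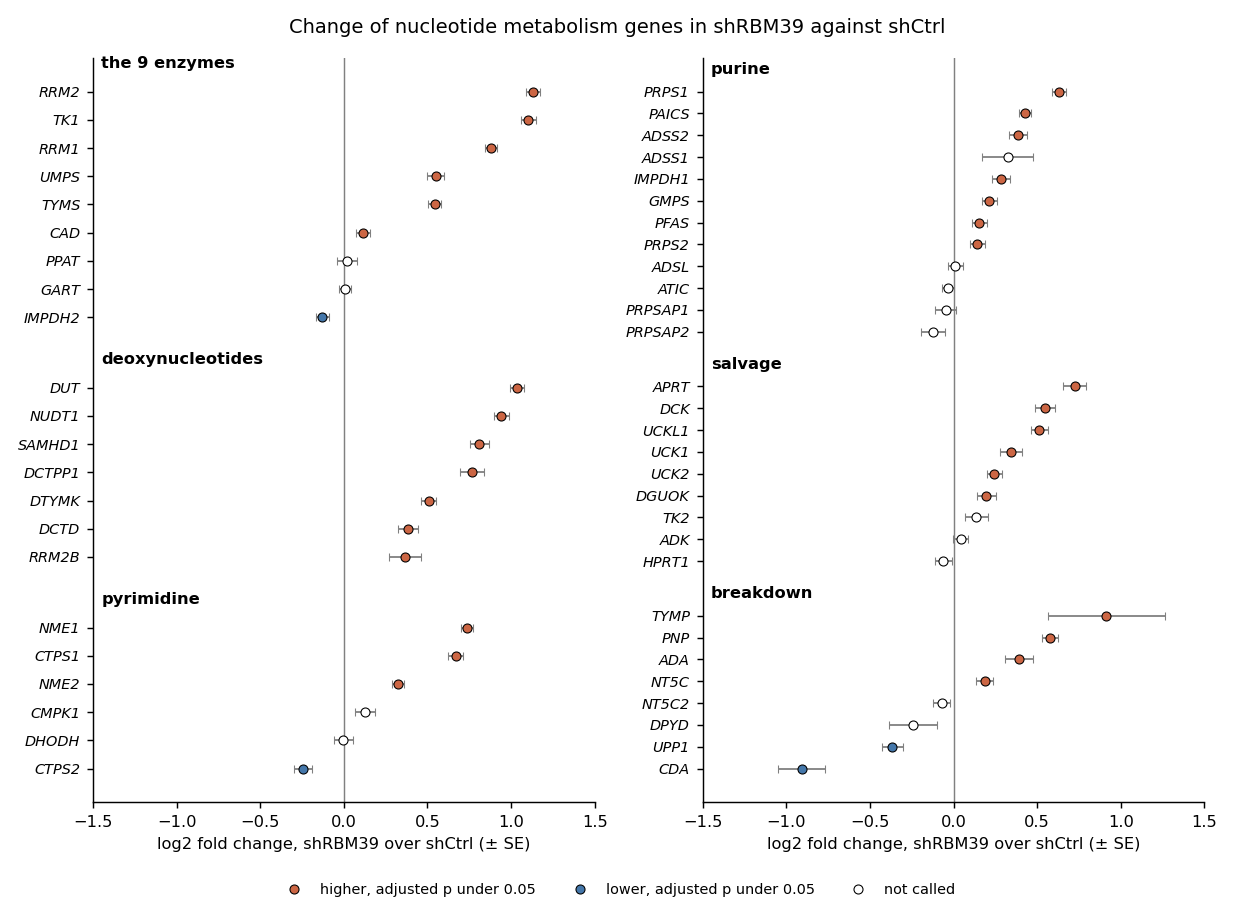
Log2 fold change with SE of the 9 enzymes and of the 42 other tested genes of nucleotide metabolism, by route, with filled points for genes called higher (orange) or lower (blue) and open points for genes not called. The deoxynucleotide genes lie wholly to the right of 0, whereas purine, pyrimidine, salvage and breakdown genes lie on both sides. Small changes such as those of CAD, GART and ADSL turn sign with library totals alone.

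Known regulators of these genes moved in different directions. MYC fell from 344 ± 17.4 to 176 ± 4.18 CPM (SD, n = 3, log2 fold change -0.96, edgeR adjusted p = 3.64e-30), and ATF4, which drives amino acid and folate genes under stress, fell by 0.43. E2F1 rose from 12.4 ± 1.11 to 23.9 ± 1.13 CPM (SD, n = 3, log2 fold change 0.95, edgeR adjusted p = 5.76e-17), and E2F2 rose by 0.74. In all, 4 of the 7 regulators rose, 2 fell and RB1 did not pass the test, where 29.3% of all tested genes rose and 30.2% fell.

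Of the 10 listed genes of S phase and proliferation, 9 rose in the same libraries, against 29.3% of all tested genes. The median log2 fold change of the list was 1.10. GINS2, FEN1 and PCNA of the replication machinery rose by 1.27, 1.25 and 1.25, and the cyclin gene CCNE1 by 1.22. CDT1, a licensing factor, did not pass the test (log2 fold change -0.03, edgeR adjusted p = 0.649). The list summed to 1822 to 1871 CPM in shCtrl and 2907 to 3091 CPM in shRBM39. The largest part of this sum was MKI67, with means of 1104 CPM in shCtrl and 1769 CPM in shRBM39. The part of cell cycle phase in the rise of TYMS, TK1, RRM1 and RRM2 was not tested.

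For each enzyme the tested gene with the most similar profile over the 6 libraries was sought among 12049 genes averaging 5 CPM or more, by the root mean square difference of centred log2 CPM. TK1 was nearest to MCM3, a subunit of the replicative helicase (0.032), and RRM2 to DHX9, an RNA helicase (0.015). UMPS was nearest to TYMSOS (0.012), the antisense gene at TYMS, TYMS to ZNF273 (0.019) and RRM1 to RP11-762I7.5 (0.017). CAD was nearest to MED17 (0.014), IMPDH2 to HPS4 (0.013), PPAT to DLEU1 (0.011) and GART to CCDC144NL-AS1 (0.013). Such nearness over 6 libraries in 2 groups says nothing of shared function or control.

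The deposited splicing table held 1582 records in 1198 gene symbols, and none was in any of the 9 enzymes. For comparison, 6.54% of all tested genes had a record. Of the other listed genes of nucleotide metabolism, 3 had records, DGUOK with 4 and ADA and UPP1 with 1 each. The table may hold selected events only, so a missing record gives no measure of splicing in the 9 enzymes.

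The changes of the 9 enzymes were compared over 17 alternative settings. TK1, RRM1 and RRM2 were called higher in all 17, with log2 fold changes of 0.96 to 1.14, 0.74 to 0.90 and 0.96 to 1.15. TYMS and UMPS were called in 16 of 17, from 0.41 to 0.56 and from 0.35 to 0.62, and lost the call only in the test against 0.5. CAD was called in 10 of 17, and in 14 its fold change was above 0.

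**Figure D5:**
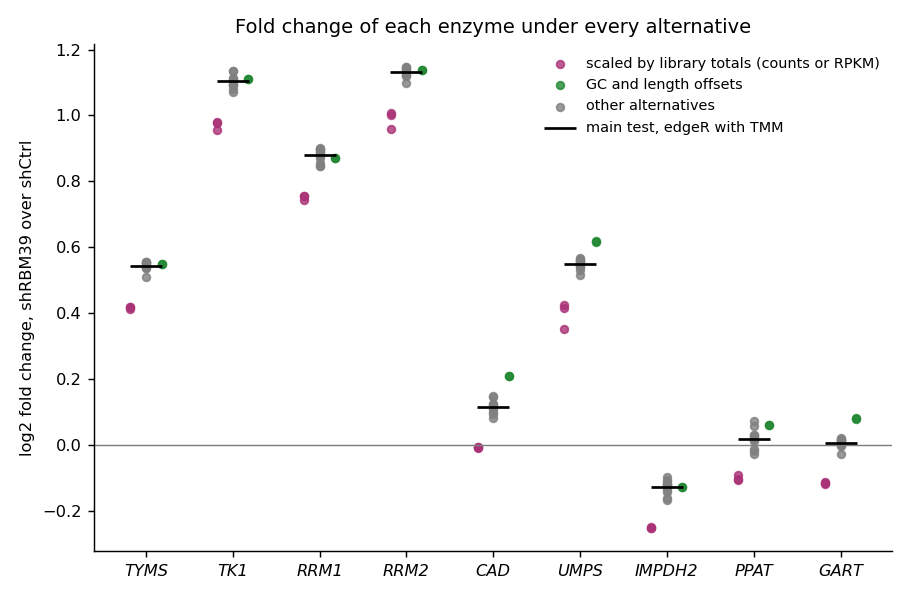
Log2 fold change of each enzyme under every alternative setting (points) and in the main test (black bars), with settings scaled by library totals in purple and settings with GC and length offsets in green. TK1, RRM1, RRM2, TYMS and UMPS stay above 0 and IMPDH2 below 0 in all settings, whereas CAD, PPAT and GART have values on both sides.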

How the data were processed

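Stranded mRNA libraries of SW480 cells were sequenced by the study. Per gene symbol, the authors deposited raw counts and RPKM values. The RPKM values were recomputed from the counts to a relative difference of 5.1e-15. Of a deposited table of splicing records only gene names were used, because it may hold selected events only and does not name its groups. The submitters' processing notes name Trimmomatic 0.36, STAR 2.5.3a, featureCounts, Subread 1.5.1, edgeR 3.12.1 and GRCh38. Strand setting, multi-mapped reads and duplicate handling are not given in the sources used here, and these affect overlapping and near-identical genes. Columns named NC were taken as shCtrl, since the labels give no other control. No value column was left unmapped.

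The 9 enzymes and all lists were chosen with earlier results of these data known. The test was edgeR 4.0.16 in R 4.3.3, with filterByExpr, TMM, a robust quasi-likelihood fit of group alone and Benjamini-Hochberg adjusted p under 0.05 over 18243 genes. The common biological coefficient of variation was 0.035. Ratios were tested with exact two-sided permutation tests (scipy 1.17.1), in which 3 against 3 libraries cannot go below 0.1. Named were all 9 enzymes, up to 4 genes of each list with the largest absolute log2 fold change, genes of a ratio, genes not tested, genes overlapping an enzyme and the most similar gene. TK2, RB1, ATF4, CDT1, MKI67, UPP1, ADSL, VIL1, KRT19 and EPCAM were named after their values were seen. Older symbols were matched through RefSeq synonyms (ADSS1 and ADSS2 as ADSSL1 and ADSS).

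Settings tried instead were library totals alone, upper-quartile scaling, DESeq2 1.42.0, no filter, at least 10 counts in every library, limma 3.58.1 (limma-trend) on the deposited RPKM as log2(RPKM + 1) and log2(RPKM + 0.1), edgeR's test against a change of 0.5 (log2), the replicate number as a block, offsets for GC content and length (splines with 5 degrees of freedom, GC known for 99.9% of tested genes) with and without the block, and each library left out in turn. A further listed gene and a ratio that needs it are not reported here. At the lowest count of any enzyme, 548 for PPAT, counting error alone is 4.27%.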

Additional observations from a re-analysis of the deposited data

How the results depend on the processing

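Of the 9 enzymes, 6 were called higher and 1 lower in the main test, against 3 and 0 in the test against a change of 0.5 (log2). Called lower were 2 with library totals alone and with limma on log2(RPKM + 1) and log2(RPKM + 0.1). Of the other pathway genes, 27 were called higher and 3 lower, against 8 and 1 in the 0.5 test, while library totals alone called 11 lower and the limma settings 8 and 8. Over all tested genes, 5351 were called higher and 5503 lower, against 1027 and 1203 in the 0.5 test, and limma called 3530 and 3535 higher. The share of higher among all calls was 49.3%, and 33.9% with library totals alone, whose construction shifts the median of all genes from -0.01 to -0.14. In these settings CAD turned to -0.0087, -0.0078 and -0.0083, GART to -0.118, -0.113 and -0.117, and with library totals ADSL to -0.114 and EPCAM to -0.106. With upper-quartile scaling CAD lost its call (0.08, adjusted p = 0.0757). Leaving out each library in turn gave 5 to 6 enzymes higher and 1 lower, 26 to 28 and 3 to 4 other pathway genes, and RBM39 kept its call in all 17 settings (-0.79 to -0.55). Replicate numbers did not pair the libraries (correlations of 0.0063, -0.027 and -0.00075, and 0 of 6 libraries closest to their own number). With the replicate block 6 enzymes were called higher and 1 lower, and 27 and 3 other pathway genes.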
